A study of Sus scrofa with 8 samples.

Results

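Macrophage-like cells were looked for among the single cells of dissociated embryonic pig somite and myotome. The 8 libraries came from the somite at embryonic day 16 (E16), E18 and E21 and from the myotome at E28, each stage once in ZZ embryos (Tibetan pigs) and once in DZ embryos (a Duroc and Tibetan cross). Each library pooled 5 embryos of 1 sow, so that stage, breed and litter had 1 library per combination and the myotome was sampled at E28 only. No group carried a treatment or an altered gene. A barcode counted as a member when it had at least 200 genes, at most 30000 unique molecular identifiers (UMIs), at most 10% of UMIs on the 13 mitochondrial genes, and at least 1 UMI of at least 3 of 9 panel genes: CSF1R, C1QA, C1QB, C1QC, TYROBP, CD68, MRC1, CD163 and PTPRC. The rule found 118 members among 82394 barcodes that passed the same limits, which is 0.143%. Members were thus selected on measured counts, so panel genes, and genes compared between members and other cells, are described below without a test.

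Macrophages are phagocytes that clear dying cells and debris, and the first of them in the mammalian embryo come from the yolk sac and settle in developing tissues. Their survival depends on the receptor CSF1R, which binds the ligands CSF1 and IL34, and their identity on the ETS factor PU.1, the product of SPI1. TYROBP is the adaptor of activating receptors such as TREM2, and C1QA, C1QB and C1QC encode the 3 chains of complement C1q, which tissue macrophages secrete and which tags material for uptake. CD68 is a protein of the lysosome membrane, MRC1 and CD163 are scavenger receptors, and PTPRC encodes CD45, the phosphatase on all white blood cells.

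The C1Q genes are shown first because no E16 member held any of them and 107 of the later members held at least 1. They lie side by side on chromosome 6, at chr6:80586259-80589213 (C1QA), chr6:80592591-80597464 (C1QC) and chr6:80601680-80606076 (C1QB), all on the plus strand, in a cluster of 19818 bases with gaps of 3377 and 4215 bases (Sscrofa11.1, RefSeq). TYROBP, the panel gene found in nearly all members, lies elsewhere on the same chromosome, at chr6:45309199-45312562 on the minus strand. The 250 bases upstream of each gene's start are given 5′ to 3′ on the gene's strand, from the RefSeq genome of that build, with capitals marking GAGGAA, the core that PU.1 is known to bind, or its reverse complement TTCCTC.
C1QA (chr6:80586009-80586258): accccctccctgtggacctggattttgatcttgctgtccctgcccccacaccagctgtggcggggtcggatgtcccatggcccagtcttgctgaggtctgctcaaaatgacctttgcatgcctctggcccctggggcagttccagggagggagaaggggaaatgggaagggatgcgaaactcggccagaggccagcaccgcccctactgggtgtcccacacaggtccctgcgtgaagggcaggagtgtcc
C1QC (chr6:80592341-80592590): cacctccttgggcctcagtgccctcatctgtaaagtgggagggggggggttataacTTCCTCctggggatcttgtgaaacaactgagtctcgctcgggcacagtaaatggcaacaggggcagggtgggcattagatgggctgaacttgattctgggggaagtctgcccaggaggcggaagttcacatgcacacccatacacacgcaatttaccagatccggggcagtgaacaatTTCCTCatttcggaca
C1QB (chr6:80601430-80601679): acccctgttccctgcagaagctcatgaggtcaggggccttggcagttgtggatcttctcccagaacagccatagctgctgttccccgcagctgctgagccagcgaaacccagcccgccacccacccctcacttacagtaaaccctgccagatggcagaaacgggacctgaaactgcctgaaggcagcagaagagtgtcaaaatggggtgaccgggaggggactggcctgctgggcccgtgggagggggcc
TYROBP (chr6:45312563-45312812): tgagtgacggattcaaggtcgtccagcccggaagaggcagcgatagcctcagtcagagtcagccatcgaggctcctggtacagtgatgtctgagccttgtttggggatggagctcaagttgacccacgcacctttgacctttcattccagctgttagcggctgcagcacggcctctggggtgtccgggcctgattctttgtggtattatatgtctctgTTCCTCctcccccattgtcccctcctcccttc
The C1QC window held the letters 2 times, 16 and 194 bases before the start, and the TYROBP window once, 32 bases before it, while the C1QA and C1QB windows held none. Of the 9 panel genes 3 had a match on either strand (MRC1 is the other), against 21.97% of 19556 coding gene windows of the same length, and a match is a description of the letters, not a site.

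The libraries held 50110370 to 71091640 UMIs over 6297 to 12173 kept barcodes. Members had median UMI counts of 4881.5 to 14983 per library, and the other barcodes 3492.5 to 6328.5. The members' median mitochondrial share, 6.68% to 8.26%, lay above that of the other barcodes, 3.67% to 5.95%. A further 26 barcodes of the 4 late libraries held at least 3 panel genes but exceeded the mitochondrial limit. Although 831 barcode sequences occurred in more than 1 library, none belonged to a member. Removing doublets by Scrublet score took 33 of the 34 members of E21-ZZ, 2 of 2 in E16-DZ and 1 of 1 in E18-ZZ and none elsewhere, whereas the automatic threshold of the same tool took 1 member.

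Cells chosen by the rule, called members, were rare at E16 and E18 and more frequent at E21 and E28. The 9 members of E16 lacked 6 of the 9 panel genes and are counted here by the rule only. There were 7 members in E16-ZZ (0.111% of its kept barcodes), 2 in E16-DZ (0.0189%), 1 in E18-ZZ (0.00971%) and 0 in E18-DZ, where 3 counts, taken as the floor of a count of 0, would be 0.0290% and the exact interval reaches 0.0356%. E21-ZZ held 34 (0.293%), E21-DZ 14 (0.137%), E28-ZZ 31 (0.285%) and E28-DZ 29 (0.238%). Every late library lay above every early one, the nearest being E16-ZZ, with an exact 95% binomial (Clopper-Pearson) interval of 0.0447% to 0.229%, and E21-DZ, with 0.0751% to 0.230%. Intervals and floors here cover counting error only. With 2 panel genes in place of 3, E16-ZZ (0.270%) lay above E21-DZ (0.147%) and E28-DZ (0.263%). With doublets removed by score, E21-ZZ (0.00949%) lay below E16-ZZ (0.117%). The late libraries averaged 0.238% ± 0.0716 (SD, n = 4) and the early ones 0.0349% ± 0.0514 (SD, n = 4), a difference of 0.203 percentage points (two-sided exact permutation test over 70 splits, p = 0.0286, the smallest this design allows). The p became 0.0571 on leaving out any 1 of the 4 early libraries (differences of 0.192 to 0.229 points), 0.0571 with doublets removed by score (0.155 points), 0.0857 with 2 panel genes in place of 3 (0.167 points), and 0.0667, again the smallest possible, without both E16 libraries (0.234 points). At a mitochondrial limit of 5% the difference was 0.0548 points, with 16 members left and none early, and without a limit it was 0.264 points. Thinned to 1500 UMIs per barcode, the libraries kept 0, 0, 1, 0, 27, 11, 29 and 25 members in the order above, so that no E16 member was left (p = 0.0286, exact permutation test).

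**Figure D1:**
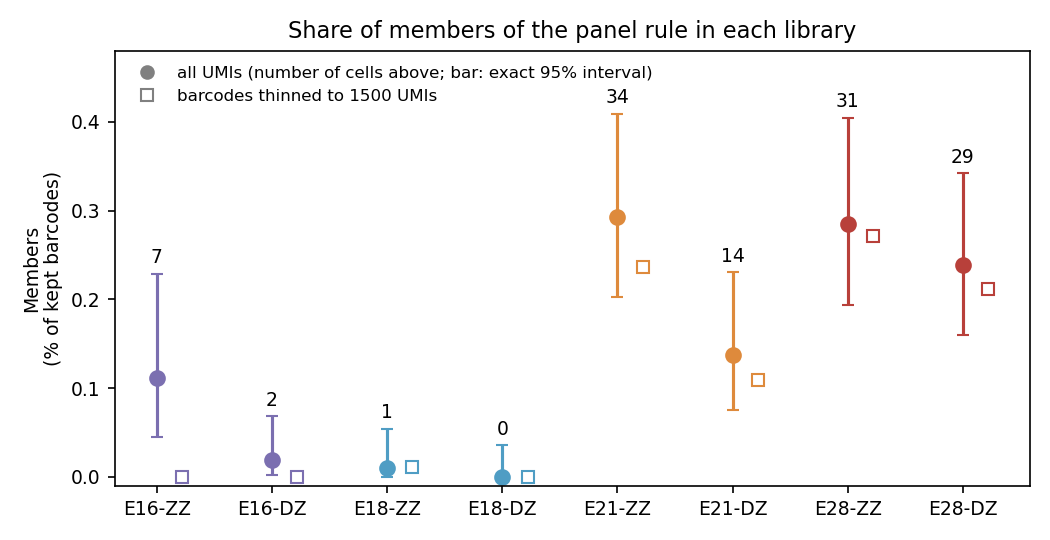
Members, the cells chosen by the panel rule, as a percent of kept barcodes in each of the 8 libraries; points carry exact 95% binomial intervals and squares give the share after thinning each barcode to 1500 UMIs. The 4 late libraries sit between 0.137% and 0.293%, all above the early libraries, of which E16-ZZ is highest at 0.111%.

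The data went against the label at E16. All 9 members at E16 held exactly 3 panel genes, and in each these were CSF1R, TYROBP and PTPRC. None held a UMI of C1QA, C1QB, C1QC, CD68, MRC1 or CD163, and 0 of 9 allows up to 33.6% of members with a UMI of the gene (exact upper bound, which limits cells with a UMI and not cells that express it). By the genes found, the E16 members are called CSF1R+ TYROBP+ PTPRC+ cells. The single E18 member held 7 panel genes, C1QA, C1QB and C1QC among them. At E21 the median was 6.5 panel genes, and at E28 it was 8, with 59 of 60 members holding at least 6. The 15 members at E21 with 3 to 5 panel genes had a median of 3752 UMIs, against 6597 for the 33 with more. C1QB was found in 46 of 48 members at E21 and 60 of 60 at E28, TYROBP in 46 and 60, CSF1R in 42 and 59, and C1QC in 42 and 59. C1QA was found in 37 and 49, PTPRC in 30 and 44, MRC1 in 24 and 57, CD68 in 21 and 40, and CD163 in 12 and 32. All 3 C1Q genes occurred together in 86 of 118 members, and 11 had none, 9 of them from E16. Among other barcodes each panel gene was found in at most 2.34% of a library (MRC1 in E16-DZ), and C1QB in 0% early and 0.12% to 0.233% late. Just inside the rule lay 15 members with 3 panel genes, and just outside 20 barcodes with 2, of which 13 came from E16.

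**Figure D2:**
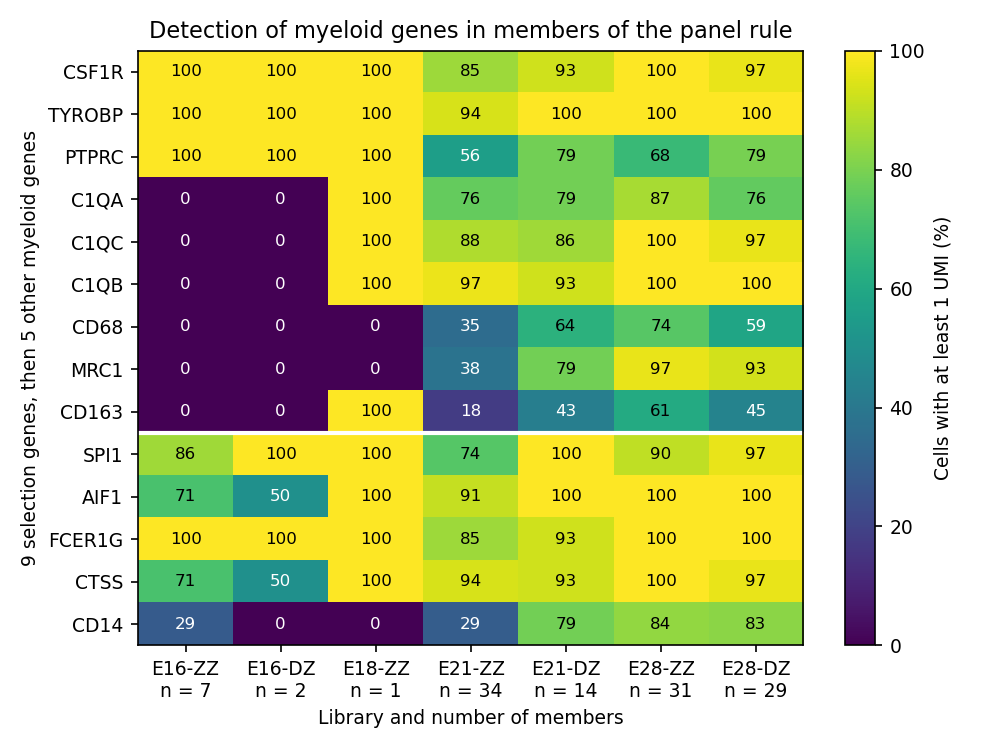
Percent of members with at least 1 UMI of each of the 9 panel genes and 5 further genes (rows), in each library with members (columns); colour gives the percent. The E16 columns are filled for CSF1R, TYROBP and PTPRC and empty for the other 6 panel genes, which appear from E18 or E21 on.

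Levels below are counts per 1000000 (CPM), the summed UMIs of a gene over all UMIs of a library's members, which compare 1 gene between libraries and not genes with each other. Fewer cells of a state and less RNA per cell cannot be told apart in such sums. CSF1R stood at 371 and 148 CPM in the ZZ and DZ members of E16, 467 in E18-ZZ, 941 and 737 at E21 (ZZ, then DZ, as in all pairs below) and 954 and 788 at E28. C1QB stood at 0 in both E16 libraries, 1335 in E18-ZZ, and 4695, 3263, 3750 and 3152 in the late ones. Its late mean was 3715 ± 703 CPM (SD, n = 4), given as a description since the rule used the gene. In the pooled E16 members 3 counts would give 28.9 CPM, which is the floor used for the bounds below. Other barcodes held 0 CPM in the early libraries and 0.263 to 0.526 in the late ones. MRC1 had no UMI before E21, then 314 and 270 CPM in E21 members and 790 and 578 in E28 members, beside up to 11.7 in the other barcodes of E16. CD163 stood at 0 at E16 and between 75.5 and 129 CPM in the late libraries. PTPRC stood at 227 and 296 CPM at E16, 66.7 in E18-ZZ and 163 to 250 in the late libraries. Each E16 member held just 3 panel genes, PTPRC among them, and would not have met the rule without it. Late members could meet the rule without PTPRC, and 74 of 108 held it. These levels are therefore no comparison of the stages.

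Myeloid genes that the rule did not use were then compared with other barcodes. Among 8 further macrophage and myeloid genes (AIF1, FCER1G, LAPTM5, SPI1, CD14, CTSS, CYBB, ITGB2), 6 were at least 4-fold higher in members than in other barcodes in all 5 libraries with at least 5 members, at a pseudocount of 10 CPM. CD14 and CYBB were not, and each held 2 UMIs in the E16 members. SPI1, the gene of PU.1, was even over the stages, at 455 and 247 CPM in E16, 334 in E18-ZZ, 424 and 396 in E21 and 421 and 379 in E28, against 3.29 to 10.3 in other barcodes. AIF1, an actin-binding protein of macrophages, stood at 215 and 98.8 CPM at E16, 734 in E18-ZZ and 883 to 1070 late. FCER1G, the gamma chain of Fc receptors, stood at 467 and 198 CPM at E16 and 645 to 881 in the late libraries. The 2 E16 libraries thus carried SPI1, AIF1 and FCER1G without the C1Q genes, AIF1 in E16-DZ by 2 UMIs in 1 member. CD14, CYBB and ITGB2 had no UMI in the E16-DZ members. Of 18386 genes, 96 (0.522%) were at least 4-fold higher and 34 (0.185%) at least 4-fold lower in members in every such library. These counts were 235 and 320 at a pseudocount of 1 CPM, where more genes were lower than higher, and 221 and 49 without E16-ZZ. Of the 20 genes with the highest median ratio among those found in at least 20% of members, 14 have a symbol and 6 an ID only. Those with a symbol are CCL8, FOLR1, CCL4, SPP1, CCL2, AIF1, CTSS, FCER1G, TAGAP, B2M, GMFG, CD14, CX3CR1 and CTSZ. CCL8, CCL4 and CCL2 are chemokines that attract monocytes, CTSS and CTSZ are lysosomal proteases, CD14 is the receptor for bacterial lipopolysaccharide, and CX3CR1 is the fractalkine receptor. These chemokines, and FOLR1 with its neighbour FOLR2, have close relatives in the genome, so counting between copies is uncertain.

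The planned comparison of late and early libraries could not be fitted, since E16-ZZ was the only early library with at least 5 members. The comparison of E21 and E28 with both E16 libraries was chosen after the member counts were seen, and its E16 side rests on 7 and 2 members. In E16-ZZ, which held the 7, 39.2% of 10373 barcodes exceeded the mitochondrial limit. Within the limits on genes and UMIs 3993 exceeded it, against 128 to 1020 in each of the other libraries. The part of this in the result was not tested. Both E16 libraries were also processed with another Cell Ranger version (3.1.0 against 3.0.2), so that version and stage cannot be told apart. With edgeR's quasi-likelihood test and Benjamini-Hochberg adjustment, 246 of 2454 genes passed adjusted p 0.05 (10.0%), 198 higher (8.07%) and 48 lower (1.96%) in the late members. The median log2 fold change over all genes tested was 0.11. Of the genes that rose, 50 had no UMI in the E16 members. They passed the filter on low counts through the late libraries alone, so that their direction was fixed, and only a lower bound of their change is given. For the lists below, the number of such genes among those tested is given beside the count. Without E16-ZZ 21 genes passed, 18 of them higher, and 20 of the 21 were among the 246. Without E16-DZ 96 passed, 92 of them among the 246, and without E28-ZZ 139 of the 246 passed again. The change differed between members and other barcodes for 6.32% of genes, in 131 with the late members relatively higher and in 24 lower, and 87 of these were among the 246. This fit used the same filter on the members' counts. Genes with no UMI in the E16 members, such as SPP1, LYVE1 and LGMN, could only come out relatively higher. The 131 thus include genes whose direction was fixed. The 131 and 24 became 60 and 2 without E16-ZZ, and 65 and 16 without E16-DZ.

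The chemokine genes CCL8, CCL2 and CCL4 rose. CCL8 stood at 383 and 98.8 CPM at E16, 400 in E18-ZZ, and 4288, 3946, 5267 and 2936 in the late libraries. The log2 fold change was 4.12 ± 0.41 (SE, adjusted p = 0.000136, edgeR's quasi-likelihood test with Benjamini-Hochberg adjustment). CCL2 stood at 192 and 148 CPM at E16 and 1615 to 2575 late, a log2 fold change of 3.70 ± 0.39. Its level in E18-ZZ, 1735 CPM, lay within the late range. CCL4 stood at 622 and 98.8 CPM at E16, 601 in E18-ZZ and 1959 to 5258 late, with a log2 fold change of 2.85 ± 0.56. Of 8 chemokine and cytokine genes tested 5 rose (TNF, CCL4, CCL5, CCL8, CCL2) and 0 fell, with a median log2 fold change of 3.91, or 2.71 with the 2 genes absent at E16 set to their bound. Of these, the change in CCL4 differed from that in other barcodes (adjusted p = 0.003355 in edgeR's separate test of this difference). For CCL8 and CCL2 the difference did not pass (adjusted p = 0.468 and 0.338 in that test). All of CCL4, CCL8 and CCL2 were low in other barcodes, at no more than 2.46, 0.505 and 8.22 CPM.

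Of 25 lysosomal genes tested 13 rose, 12 did not pass and 0 fell, with 2 of the 25 absent at E16. The median log2 fold change was 1.90 (1.80 with bounds). LGMN, the lysosomal protease legumain, had no UMI in E16 or E18 members and stood at 244, 378, 387 and 535 CPM in the late libraries, at least 13.3-fold higher than the E16 floor. CTSS stood at 251 and 49.4 CPM at E16 and 889 to 1357 late, a log2 fold change of 2.65 ± 0.48. CTSB, another cathepsin, stood at 59.8 and 0 CPM at E16 and 273, 602, 932 and 1113 late. Those that rose include NPC2 and PSAP of lipid breakdown, DNASE2, which degrades the DNA of engulfed cells, and the membrane proteins LAMP2 and CD63.

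Of 12 scavenger and efferocytosis receptors tested 9 passed, all higher late, but 7 of the 12 had no UMI at E16, so that their direction was fixed. The median log2 fold change of 6.69 in the fit becomes 2.38 with those genes at their bound. MERTK and AXL, receptors for dying cells, STAB1, MSR1 and TREM2 were among the 9. LYVE1, the hyaluronan receptor of some tissue macrophages, had no UMI before E21, 52.3 and 189 CPM in E21 members and 580 and 325 in E28 members, at least 9.91-fold higher late than the E16 floor. CD36, a receptor for lipids and dying cells, stood at 0 in E16 and E18 and at 232, 89.9, 507 and 361 CPM late, at least 10.29-fold higher. STAB1 stood at 23.9 and 0 CPM at E16 and at 273, 180, 756 and 373 late. Each of these receptors was higher in every late library than in both E16 libraries. For those with no UMI at E16 this order could not have been reversed. The share of all genes with this order was not counted.

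SPP1, the secreted matrix protein osteopontin, was absent early and abundant late. It stood at 0 before E21, at 982 and 2319 CPM in E21 members and at 8197 and 6094 in E28 members, at least 152-fold higher late than the E16 floor. The number of members with a UMI went from 0 of 9 at E16 to 24 of 48 at E21 and 55 of 60 at E28, while 0.626% to 1.87% of other barcodes held it. FTL, the light chain of the iron store ferritin, stood at 1496 and 1186 CPM at E16 and 6897, 7344, 9039 and 9361 late, against 1584 to 2502 in other barcodes. Its log2 fold change was 2.80 ± 0.30, and the change differed from that in other barcodes (adjusted p = 2.8e-05). Of 6 genes of haem and iron handling 3 rose (BLVRB, FTL, HMOX1), and HMOX1, which opens the haem ring, stood at 0 and 49.4 CPM at E16 and 108 to 262 late. APOE, a lipid carrier, stood at 35.9 and 0 CPM at E16 and at 1174, 1645, 558 and 788 late, a ratio of 36 with a counting interval of 12.3 to 175. In other barcodes APOE moved the opposite way, from 825 and more at E16 to 36.3 and less in the late libraries. Of 9 lipid genes tested 5 rose (ABCA1, APOE, CD36, FABP5, PLTP), with 2 of the 9 absent at E16.

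Receptors known from tissue-resident macrophages and microglia followed the same order. CX3CR1 stood at 23.9 and 0 CPM at E16, 734 in the E18 member and 343, 207, 339 and 361 late, a late to E16 ratio of 16.2 with a counting interval of 4.49 to 133.9. P2RY12, a purine receptor, stood at 23.9 and 0 CPM at E16 and 110 to 172 late, and GPR34 at 83.8 and 0 at E16 and 234 to 289 late. All 4 microglia genes tested passed (CX3CR1, P2RY12, GPR34, TREM2), 1 of them absent at E16, and 6 of 7 of the tissue-resident or yolk sac list, of which 4 were absent at E16. Among 11 transcription factors 2 rose, MAF and CEBPB, and SPI1 did not pass (log2 fold change 0.31 ± 0.34, adjusted p = 0.635 in the same model). Of 7 genes of MHC class II presentation 4 rose, namely SLA-DQB1, SLA-DMB, CTSS and IFI30, with 3 of the 7 absent at E16. Of 9 immediate-early and stress genes 5 rose (FOS, IER3, DUSP1, ZFP36, NR4A1), with 1 of the 9 absent at E16, and neither list held a gene that fell. Such genes are known to respond to tissue dissociation. Their list summed to 2968 and 3904 CPM in E16 members and 3128 to 8049 in the late ones, and to 2437 to 5901 in the other barcodes of the late libraries, and the part of dissociation in the other results was not tested.

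**Figure D3:**
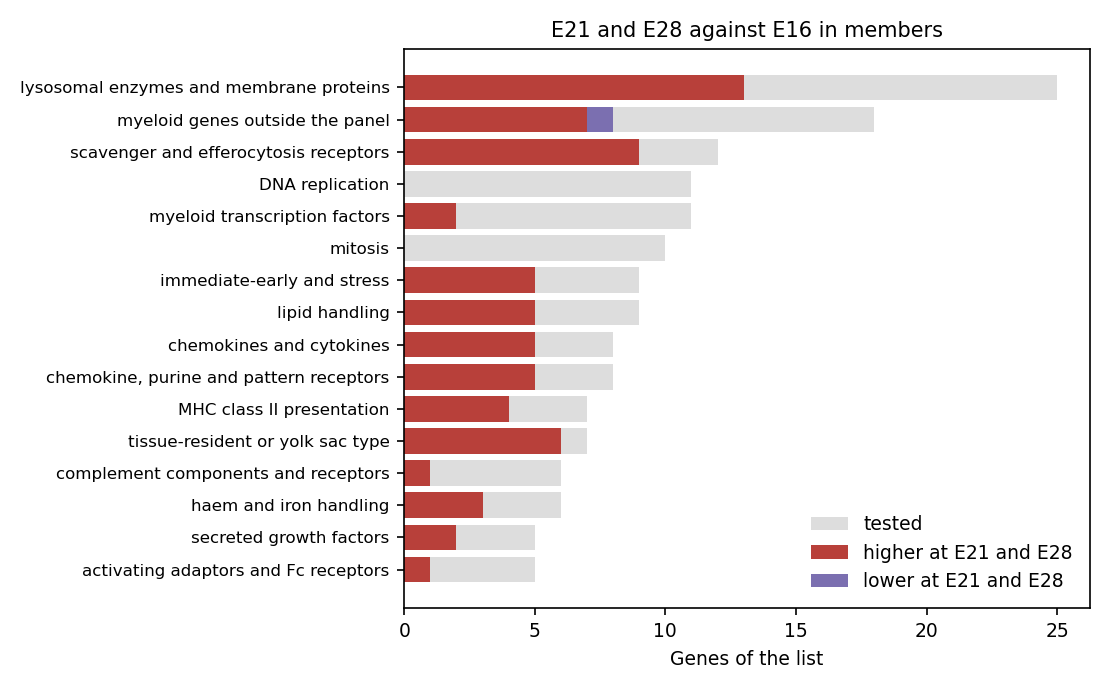
Number of genes tested, higher and lower in E21 and E28 members against E16 members, for each gene list with at least 5 genes tested (edgeR, adjusted p under 0.05). Lysosomal genes (13 of 25 higher) and scavenger receptors (9 of 12 higher, with 7 of the 12 absent at E16) hold the most calls, and the mitosis and replication lists hold none.

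Fewer genes fell. MPO, the myeloperoxidase of granulocyte and monocyte precursors, stood at 383 and 1384 CPM at E16 and had no UMI in any of the 108 late members. The level was at least 131.5-fold higher at E16 than the late floor, a direction fixed by the filter since the gene is absent late. Of the 9 E16 members 5 held it, against at most 0.0982% of other barcodes in any library. S100A4 stood at 431 and 296 CPM at E16, 267 in E18-ZZ and 29.1 to 80.9 late, and its log2 level fell by 2.95. YBX3, a cold shock domain protein that binds RNA, stood at 395, 642 and 534 CPM in the 3 early libraries and 27 to 64.4 in the late ones, and its log2 level fell by 3.09. ARHGDIB went from 1364, 988 and 1001 CPM in the early libraries to 171 to 314 in the late ones. The late and early values of YBX3, S100A4 and ARHGDIB, picked among genes that fell, did not overlap. How many of all genes separate in this way was not counted. KRT8, a keratin of simple epithelia, stood at 108 and 346 CPM in E16 members, beside 4351 and 3468 in other barcodes of those libraries, and the part of such RNA in its fall was not tested.

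**Figure D4:**
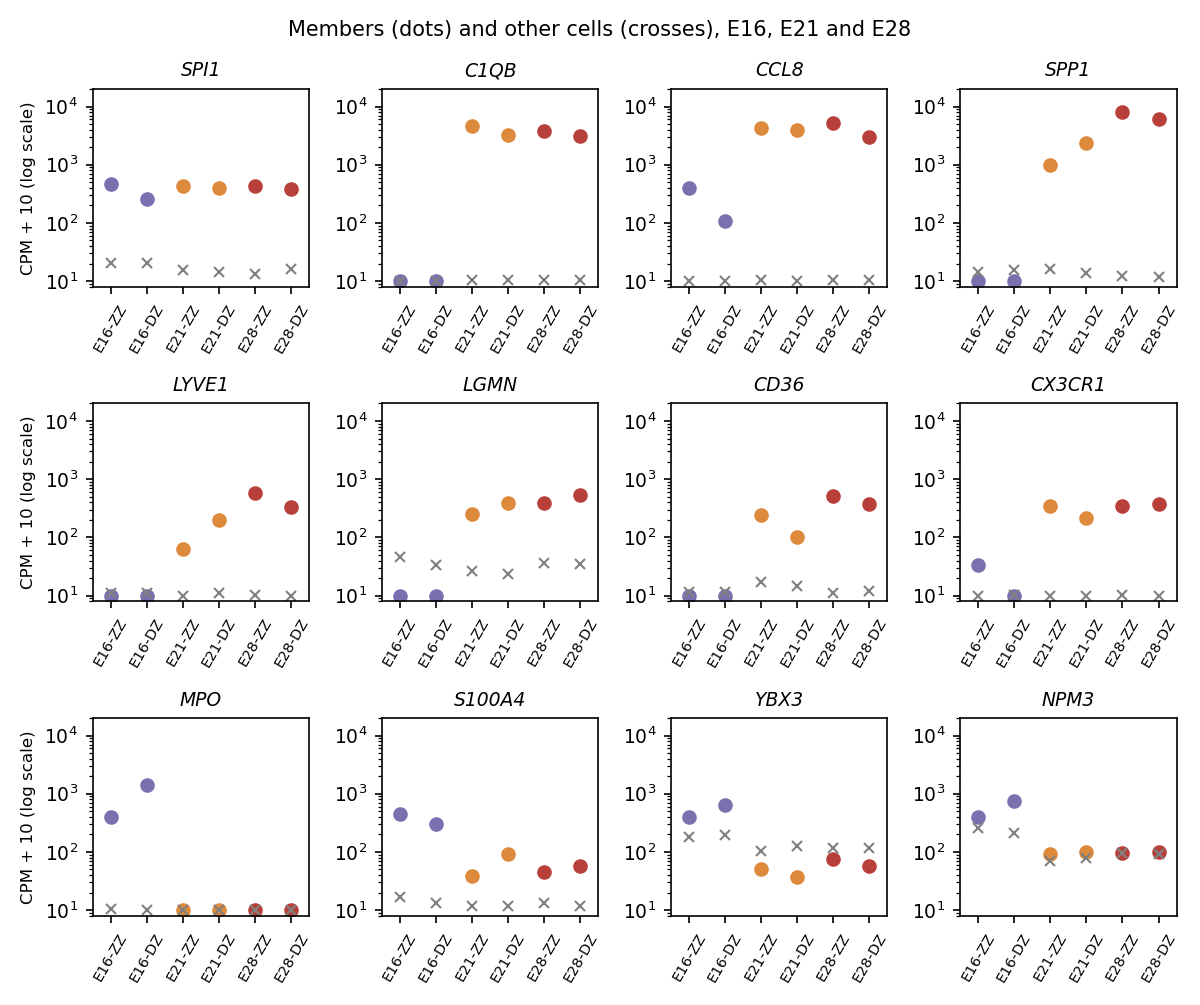
Levels of 12 genes by library on a log axis (CPM + 10), with dots for members and crosses for other barcodes. C1QB, SPP1, LYVE1, LGMN and CD36 are at 0 in the E16 members and rise later, MPO shows the opposite order, and SPI1 stays between 247 and 455 CPM.

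Markers of other blood cells were read in the same members. Of the haematopoietic progenitor list, MYB was found in 4 of 9 E16 members and 0 of 108 late ones, KIT in 4 and 1, GATA2 in 2 and 0, CD34 in 4 and 11, MECOM in 0 and 5, HLF in 0 and 1 and SPN in none. The summed level of that list was 144 and 395 CPM in E16 members and 18.0 to 71.9 in the late ones, against 60.1 to 84.5 in other barcodes. S100A8, S100A12, ELANE, PRTN3, AZU1 and LYZ, markers of granulocytes and monocytes, had no UMI in E16 or late members, and CSF3R was found in 1 E16 member. Of 11 lymphocyte genes measured 8 had no UMI in any member, while CD79A was found in 7 of 9 E16 and 68 of 108 late members, NKG7 in 3 and 40 and IL2RG in 3 and 11. The summed level of the lymphocyte list, 148 to 288 CPM in the E16 and late members, lay near the 125 to 267 of the other barcodes of those libraries. The mast cell gene MS4A2 was found in 7 of 9 and 24 of 108, and the megakaryocyte gene ITGA2B in 7 and 18. Among 8 endothelial genes, EGFL7 was found in 7 and 93, PLVAP in 7 and 76, PECAM1 in 7 and 13, TIE1 in 2 and 18, CLDN5 in 0 and 2 and ESAM in 3 and 0, whereas CDH5 and KDR, which define endothelium, were at 0 in both. The list summed to 754 and 395 CPM at E16 and 656 to 1028 in the late members, against 121 to 231 in the other barcodes of the late libraries. Among epithelial genes KRT8 was found in 7 and 1 and KRT18 in 5 and 0, and EPCAM and CDH1 in none. The fibroblast list summed to 35.9 and 0 CPM in E16 members and 389 to 1366 in late ones, beside 2073 to 6858 in other late barcodes. Of its 4 genes tested against E16, 2 rose, with 3 of the 4 absent at E16. The muscle list summed to 12.0 and 0 CPM at E16 and 80.9 to 614 late. MAP1B, absent at E16, also rose, at 535 CPM in E21-ZZ members beside 1054 in other barcodes. The part of such RNA in the results was not tested.

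Mitosis genes were compared in the libraries with at least 5 members, which is a single early library. At least 2 of 14 measured mitosis genes were found in 7 of 7 members of E16-ZZ and in 13 of 34, 6 of 14, 16 of 31 and 12 of 29 in the late libraries, where the shares were 38.2%, 42.9%, 51.6% and 41.4%. E16-ZZ was above all late libraries, but 1 library against 4 cannot go below p = 0.2 in an exact permutation test, which is the value it gave. After thinning to 1500 UMIs the shares were 57.1% in E16-ZZ and 22.9% ± 8.29 (SD, n = 4) late. The 2 members of E16-DZ held such genes before thinning and 0 of 2 after it. Before thinning, other barcodes held such cells at 81.8% in E16-ZZ and 29.2% to 48.4% in the late libraries. After thinning their shares were 59.0% in E16-ZZ and 19.1% to 31.2% late. None of 10 mitosis and 11 replication genes passed the edgeR test of late against E16, with median log2 fold changes of -0.53 and -0.62.

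E28 members were then compared with E21 members, 60 cells against 48 in 2 libraries each, with breed as covariate and 1 residual degree of freedom. By edgeR's quasi-likelihood test 22 of 2560 genes passed (0.859%), 11 higher (0.430%) and 11 lower (0.430%) at E28, and the median over all genes was -0.03. SPP1 rose from 982 and 2319 CPM to 8197 and 6094, a log2 fold change of 2.12 ± 0.35 (SE, adjusted p = 0.011 by the same edgeR test). FOLR2, the folate receptor of resident macrophages, was found in 11 of 48 members at E21 and 48 of 60 at E28, with a log2 fold change of 2.09 ± 0.40 (adjusted p = 0.0225, edgeR), and 9.69% to 14.7% of the other barcodes of these libraries held it too. CCL14 rose by 1.75 ± 0.30 on the log2 scale, and CXCL2, a chemokine for neutrophils, FAM20A, CPM, which encodes carboxypeptidase M, and LGALS1 rose as well. OGN, COL1A1 and FN1, genes of connective tissue matrix, also rose. The summed fibroblast list, to which such genes belong, stood at 389 and 404 CPM in E21 members and 1091 and 1366 at E28, and at 2073 and 2459, then 6858 and 6154, in other barcodes, and their part in these calls was not tested.

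Of the 11 genes that fell, 5 are listed by ID only. IRF1, an interferon-induced factor, stood at 186 and 144 CPM at E21 and 12.9 and 18.0 at E28, and its log2 level fell by 3.50 (adjusted p = 0.00507, edgeR). SLA-DRA, the alpha chain of pig MHC class II, stood at 384 and 270 CPM and then 64.4 and 12.0, and SLA-DQB1 at 482 and 324 and then 129 and 66.2. The values of IRF1, SLA-DRA and SLA-DQB1, named for the size of their fall, did not overlap between the stages. How many of all genes separate in this way was not counted. Of 7 genes of MHC class II presentation 2 fell. PSMB8, a subunit of the immunoproteasome, and B2M, the light chain of MHC class I, fell as well. B2M stood at 6444 and 6562 CPM at E21 and 2904 and 2021 at E28. The SLA genes belong to a multigene family, so counts between close copies are uncertain. No gene passed with members of at least 1000 UMIs only, where the 20 named genes had the same direction and adjusted p of 0.0569 to 0.220 in edgeR, or with 2 panel genes in place of 3. Leaving out 1 library dropped the breed term and left 1 library at a stage. Without E21-DZ 7 genes passed, of which 1 was among the 22, and without E21-ZZ, E28-ZZ or E28-DZ 44, 48 and 43 passed, sharing 16, 20 and 17.

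LYVE1 and the MHC class II genes were also read cell by cell in the late members. LYVE1 was found in 9 of 48 members at E21 and 43 of 60 at E28, and SLA-DRA or SLA-DQB1 in 32 and 20. Of these genes the 2 SLA genes passed the test between the stages, and LYVE1 did not (log2 fold change 1.94 ± 0.50, adjusted p = 0.146, edgeR). At E28, 34 members held LYVE1 only, 11 the MHC class II genes only, 9 both and 6 neither, while 42 held LYVE1 together with MRC1. In the other barcodes of the late libraries LYVE1 was found in at most 0.0786%, SLA-DRA in at most 0.354% and SLA-DQB1 in at most 1.93%. At E21, 26 held the class II genes only, 3 LYVE1 only and 6 both. SPP1 was found with LYVE1 in 41 members at E28 and 7 at E21.

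For 16 genes (0.625%) the change from E21 to E28 differed between members and other barcodes, and 5 of them were among the 22. For SPP1 the difference of the 2 changes was 3.36 ± 0.43 on the log2 scale (adjusted p = 0.00302, edgeR's quasi-likelihood test), where the level in other barcodes went from 6.24 and 3.70 CPM to 2.34 and 1.87. The change of CCL14, CD36, CRABP1 and FTL was also relatively higher in members. Within members the change of CD36 (adjusted p = 0.112, edgeR), CRABP1 (adjusted p = 0.169, edgeR) and FTL (adjusted p = 0.863, edgeR) did not pass. CRABP1 stood at 36.0 to 241 CPM in members and 371 to 1806 in other barcodes, and the part of such RNA was not tested. APOE, at 1174 and 1645 CPM at E21 and 558 and 788 at E28 in members, went lower relative to other barcodes, where it rose from 8.26 and 12.3 to 36.3 and 31.8 (log2 difference -2.88 ± 0.25, adjusted p = 0.000138, edgeR). IRF1, CCL2, CCL4, B2M, COL2A1, ITM2C, TXNIP and CD74, annotated as the invariant chain of MHC class II, also went lower relative to other barcodes. The CD74 feature did not mark members, since at least 99.7% of the other barcodes of each late library held it. It stood at 5177, 4620, 2668 and 2533 CPM in late members and 2969 to 3810 in other barcodes. Its change within members did not pass (adjusted p = 0.0608, edgeR). CCL2 stood at 2086, 2472, 1615 and 2575 CPM in members, with no order by stage.

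**Figure D5:**
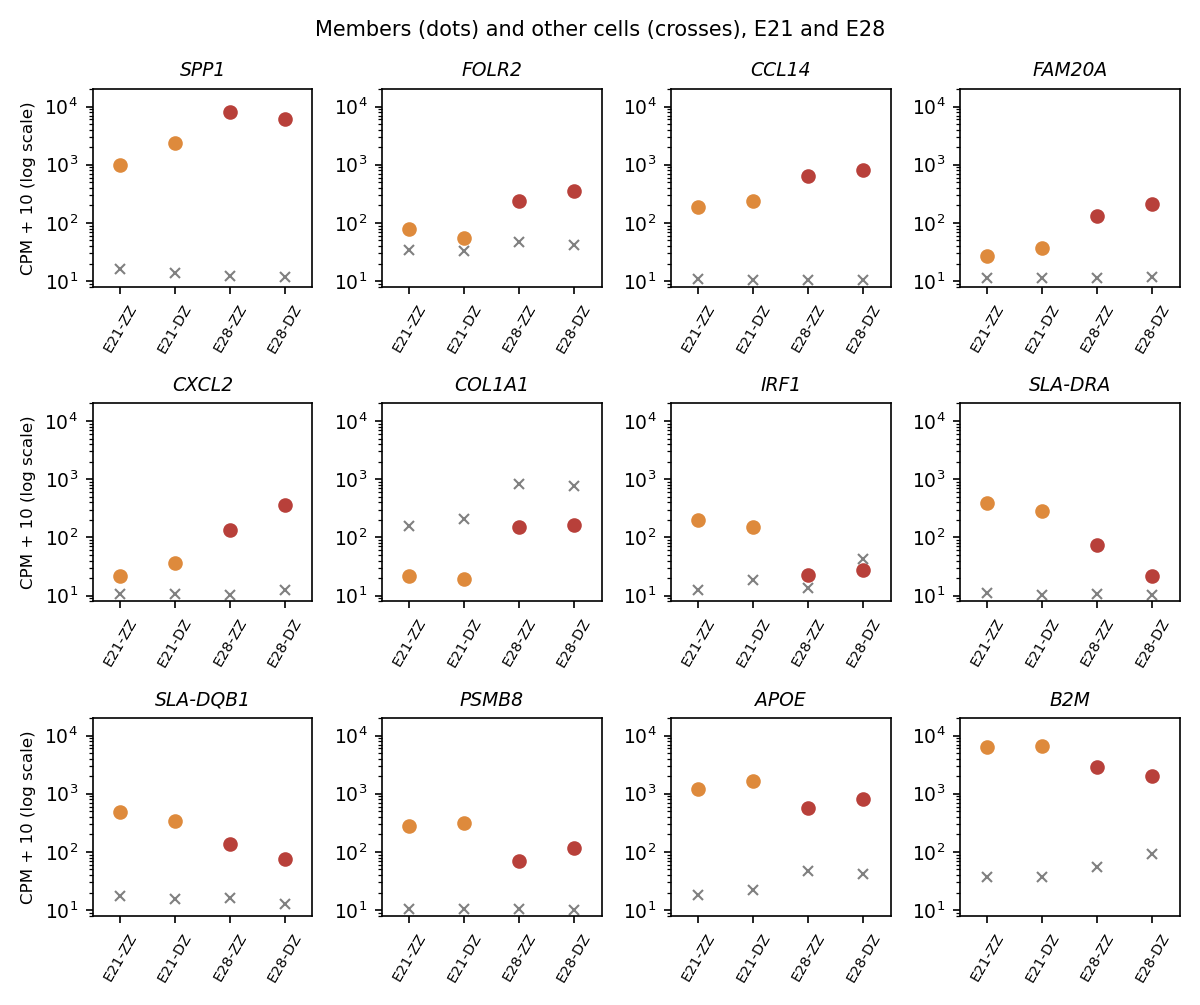
Levels of 12 genes in the 4 late libraries on a log axis (CPM + 10), with dots for members and crosses for other barcodes. SPP1 lies higher at E28 and IRF1, SLA-DRA, SLA-DQB1 and B2M lie lower, while COL1A1 rises in members and in other barcodes.

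Between the breeds no gene passed in the late members (0 of 2560, 0%), with edgeR's quasi-likelihood test and Benjamini-Hochberg adjustment. At an unadjusted p under 0.05 there were 126 genes, and DESeq2 called 0. Without E28-ZZ 31 genes passed, without E21-ZZ 10 and without E28-DZ 2, each with the stage term dropped, without members holding another lineage's genes 14 and without the low-count filter 23. Each library came from its own sow, so that the late libraries of a breed hold 2 litters. CCL4, chosen after its values were seen, stood at 2173 and 1959 CPM in the ZZ libraries and 4557 and 5258 in the DZ libraries of E21 and E28 (adjusted p = 0.152, edgeR).

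The 2 ligands of CSF1R were read in the other barcodes of the same tissue. CSF1 stood at 1.43, 1.15, 1.00, 1.09, 1.51, 1.43, 2.44 and 4.69 CPM from E16-ZZ to E28-DZ. IL34 stood at 0.420, 0.272, 0.105, 0.0840, 0.174, 0.470, 1.45 and 3.43 CPM in the same order. Both were highest in the 2 myotome libraries, where tissue and stage cannot be told apart.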

How the data were processed

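Single-cell RNA was sequenced from 8 pig libraries (10x Genomics). The authors deposited UMI counts per gene and barcode, made with Cell Ranger 3.1.0 (both E16 libraries) or 3.0.2 (the other 6), as the submitters' processing notes and matrix headers give it, on Sscrofa11.1. Deposited barcodes are those called as cells. Of 90688 barcodes, 82394 passed the limits of the report. The 6455 of 21301 features listed by ID only had 687 symbols in the name table. Members' counts were summed per library (at least 5 members, or 2 at E16) and tested with edgeR 4.0.16 (R 4.3.3; filterByExpr, TMM, quasi-likelihood, Benjamini-Hochberg, adjusted p 0.05), panel genes left out before adjustment. Ratios used CPM with a pseudocount of 10. Shares were tested by exact permutation over libraries (SciPy 1.17.1), each treated as 1 replicate, so that p-values measure the spread between litters of different stage and breed. Doublets were scored with Scrublet in scanpy 1.11.5, at 0.8% per 1000 barcodes, and not removed. DESeq2 1.42.0 and changed panel numbers, UMI, mitochondrial and member limits, pseudocounts, filters and left-out libraries were alternatives.

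The genes named were drawn mainly from the panel, the 20 highest ratios among genes found in 20% of members, the 10 largest changes each way among calls found in 10% of members of the higher group, and members of fixed gene lists. Not all genes of these sets are named. Members and lists were chosen with earlier results of these data known. In counts simulated for E28 against E21, 4 of 46 genes changed 2-fold, 30 of 49 changed 4-fold and 48 of 50 changed 8-fold were recovered over 2302 genes tested, with 5 false calls. The changed genes were drawn from better counted genes only, with the same dispersion for all genes. These rates therefore do not cover genes with few counts. No other series' columns were present. A gene that passed the E28 against E21 test is not reported here.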

Additional observations from a re-analysis of the deposited data

Results flagged for a closer look

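Of 44 groups of 4 values examined, 5 held a value far from the other 3 by Dixon's test, which flags about 1 in 20 groups by chance. These were the share of members of the panel rule in E16-ZZ, 0.111% against 0% to 0.0189% in the other early libraries, and, in members of the late libraries, CD68 in E21-ZZ (87.2 CPM), IL34 in E28-DZ (6.02 CPM), IRF8 in E21-DZ (207 CPM) and CX3CR1 in E21-DZ (207 CPM). The IL34 value is 1 UMI in 1 member, with no UMI in the other late libraries, so that its flag has no weight. The change between stages differed between members and other barcodes, by the interaction test in edgeR, from E21 to E28 for 5 genes relatively higher in members and 11 lower, and from E16 to the late libraries for 131 higher and 24 lower. The 131 include genes with no UMI in the E16 members, whose direction was fixed. Above the mitochondrial limit, 26 barcodes of the late libraries held at least 3 panel genes and entered no comparison.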

How the results depend on the processing

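The late minus early difference in share (0.203 points) was 0.167 with 2 panel genes, 0.155 with doublets removed by score, 0.0548 at a mitochondrial limit of 5%, 0.264 without that limit, 0.234 without both E16 libraries and 0.185 to 0.237 with 1 library left out (exact permutation p of 0.0571 without any 1 early library). The numbers of genes higher and lower in members (96 and 34) were 28 and 7 with 2 panel genes, 228 and 78 with 4, 235 and 320 at pseudocount 1, and 28 and 5 at pseudocount 50. At 10 members per library and without both E16 libraries 221 were higher, with 1 library left out 100 to 221, and 226 were lower at a mitochondrial limit of 5% and 72 without members holding another lineage's genes. With doublets removed by score, E21-ZZ kept 1 member and left every gene test below. The E28 against E21 and DZ against ZZ fits then used 3 libraries without the covariate and are the same fits as without E21-ZZ. They are no doublet-free version of the comparisons over 4 libraries. E16-DZ kept no member, so the tests against E16 then had E16-ZZ alone on the E16 side. E28 against E21 (22 genes) gave 0 with 2 panel genes or at least 1000 UMIs, 44 with doublets removed, 50 without other-lineage members, 7 to 48 leaving out 1 library, 4 by DESeq2's Wald test, 55 without the low-count filter and 14 without breed. DZ against ZZ (0) gave 10, 14, 0 to 31 and 23 with doublets removed, other-lineage members removed, 1 library left out and no filter. The E21 to E28 interaction (16) gave 41 at 1000 UMIs, 43 with doublets removed, 40 without other-lineage members, 11 to 73 leaving out 1 library, 25 with DESeq2 size factors, 27 by its Wald test and 49 without filter. E21 and E28 against E16 (198 higher, 48 lower) gave 348 and 122 with 2 panel genes, 82 and 14 at 5 members per library, 108 higher by the Wald test, 73 lower without breed, and 18 to 217 higher and 3 to 48 lower leaving out 1 library. Its interaction (131 higher, 24 lower) gave 211 and 56 with 2 panel genes, 83 and 15 with doublets removed, 303 higher without filter, 65 higher at 5 members, 14 lower at 1 member, and 60 to 141 higher and 2 to 24 lower leaving out 1 library. There CAMK2D, NEK6 and MDFI, at log2 differences of -3.62, -3.11 and -2.89 without E16-DZ, turned to fitted values of 11.52, 12.41 and 11.65 without E16-ZZ (adjusted p = 0.744, 0.522 and 0.618, edgeR), where the E16 members left have no UMI of them, so that this direction was fixed and the values are no bound. The cause of these shifts was not tested. The 131 genes relatively higher in the full fit also include genes with no UMI in the E16 members, whose direction was fixed. Over all alternatives, for the main results 87 kept their direction and side of the threshold, 62 moved and 7 lost the call, and for single genes 1038 kept them, 214 lost the call and 48 moved. A 5% mitochondrial limit could not be fitted in any gene test, nor 4 panel genes against E16. The mitosis share could not be recomputed at 4 panel genes, at 5% or without E16. No pairing of libraries by replicate number was possible, because the labels give none and each stage and breed has 1 library. The interaction tests paired members with the other barcodes of the same library. The tests between stages held breed as a term.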
